A study of Mus musculus with 12 samples.

Results

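The Ms4a genes described here are Ms4a4b, Ms4a4c, Ms4a6b, Ms4a6c, Ms4a6d and Ms4a7, 6 of the 17 genes named Ms4a on the array and of 18193 named genes in all. They were taken from a list made with earlier results of these data known. Each is shown by its brightest probe set, the one whose average over the 12 arrays was highest, with its other probe sets as checks. The arrays measured RNA of CD11b+ cells sorted from the hippocampus of female mice from Jackson Laboratory, 3 mice in each of 4 groups. These were C57BL/6 mice given 10 Gy of X-rays, sham C57BL/6 mice, Balb/c mice given 10 Gy, and sham Balb/c mice. Radiation went to a circle of 1 cm over the forebrain at an age of 6.5 weeks, under ketamine and xylazine, and cells were taken 1 month later, at 10.5 weeks. No labelled genotype or transgene sets the groups apart other than the strain, and each array holds 1 animal.

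MS4A genes encode small proteins that cross the cell membrane several times and sit beside immune receptors. The best known are CD20 of B cells, encoded by Ms4a1, and the beta chain of the high-affinity IgE receptor of mast cells, encoded by Ms4a2. Macrophages use other members, and in human genetics the MS4A region is linked to Alzheimer disease and to the soluble form of TREM2, a lipid-sensing receptor of microglia. In the mouse brain, Ms4a7 is known as a marker of macrophages at the brain's borders and of bone marrow-derived macrophages, while Ms4a6b, Ms4a6c and Ms4a6d belong to a subfamily with several copies in the mouse.

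The 6 genes lie together on chromosome 19 of the mouse genome (RefSeq annotation of GRCm38.p6). Ms4a7 is at chr19:11321039-11336146, Ms4a4c at chr19:11404717-11427246 and Ms4a4b at chr19:11443558-11463549. Ms4a6c follows at chr19:11469353-11487182, Ms4a6b at chr19:11518559-11530403 and Ms4a6d at chr19:11586606-11604804. This stretch of 284 kb holds 8 of the 21 annotated Ms4a genes of the chromosome, the 6 listed ones among them.

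The start regions of neighbouring copies are shown because Ms4a4c and Ms4a4b gave very different array values, while Ms4a6c and Ms4a6b were both bright. These values come from different probes and do not show which gene has more RNA. Each window holds 250 bases before and 50 bases after an annotated start, from RefSeq (GRCm38.p6), and a window was matched for 5 of the 6 genes. Capitals mark the longest run of bases that the windows of a pair share without a mismatch.
Ms4a4c (chr19:11407411-11407710, + strand): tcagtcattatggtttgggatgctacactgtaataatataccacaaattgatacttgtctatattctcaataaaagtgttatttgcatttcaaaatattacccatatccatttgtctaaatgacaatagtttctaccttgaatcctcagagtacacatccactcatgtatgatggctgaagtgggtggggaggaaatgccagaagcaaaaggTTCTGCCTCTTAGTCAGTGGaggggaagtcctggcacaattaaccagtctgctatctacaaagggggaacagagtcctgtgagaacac
Ms4a4b (chr19:11443308-11443607, + strand): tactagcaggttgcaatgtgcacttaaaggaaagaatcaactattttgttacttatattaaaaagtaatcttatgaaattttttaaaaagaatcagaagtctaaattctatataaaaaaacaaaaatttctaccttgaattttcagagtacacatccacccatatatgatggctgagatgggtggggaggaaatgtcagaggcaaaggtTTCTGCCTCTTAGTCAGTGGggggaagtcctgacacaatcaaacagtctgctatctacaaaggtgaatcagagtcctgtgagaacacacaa
Ms4a6c (chr19:11469118-11469417, + strand): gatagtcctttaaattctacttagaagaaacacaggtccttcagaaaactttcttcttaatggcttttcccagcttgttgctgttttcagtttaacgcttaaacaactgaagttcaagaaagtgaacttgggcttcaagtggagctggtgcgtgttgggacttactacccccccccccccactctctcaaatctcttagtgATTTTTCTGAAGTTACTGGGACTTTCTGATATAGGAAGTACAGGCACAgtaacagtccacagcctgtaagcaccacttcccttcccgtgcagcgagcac
Ms4a6b (chr19:11518309-11518608, + strand): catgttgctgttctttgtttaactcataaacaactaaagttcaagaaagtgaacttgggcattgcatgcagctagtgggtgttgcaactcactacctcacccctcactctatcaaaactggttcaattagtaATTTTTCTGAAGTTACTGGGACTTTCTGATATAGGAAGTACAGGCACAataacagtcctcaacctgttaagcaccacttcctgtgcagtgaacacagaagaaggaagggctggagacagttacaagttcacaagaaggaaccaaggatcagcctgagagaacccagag

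The window of Ms4a4c belongs to a start inside the annotated gene. Over their whole length the windows of Ms4a4c and Ms4a4b were 72.9% identical, the highest value among the 171 pairs of 19 Ms4a windows, whose median was 46.9%. Their longest exact run had 20 bases. Ms4a6c and Ms4a6b were 51.2% identical over the whole windows, since their matching parts lie at different distances from the start, but they shared a run of 48 bases, the longest of any pair, against a median of 8. That run begins 49 bases before the start in Ms4a6c and 118 bases before it in Ms4a6b.

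Neither of the motifs looked for that are bound by interferon-activated factors was found in the 6 windows of these genes, 2 of which belong to Ms4a7. The interferon-stimulated response element, GAAANNGAAA on either strand, was in 3.44% of all 32851 windows of the mouse genome, and the gamma-activated site, TTCNNNGAA on either strand, in 8.3%. Only exact matches of these strings were counted, so strings that differ by a base were not, and longer distances from the start were not searched. The core of ETS-family sites, AGGAAGT on either strand, was chosen after the windows had been read. It lies within the capitals of Ms4a6c and Ms4a6b, and 9.35% of all windows hold it, against 2 of the 6 windows here.

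All values below are log2 values from the array. They compare a probe set between arrays and say nothing of which gene has more RNA. All arrays had a median of 2.44, with 35.3% of probe sets above 5. A gene was tested if its probe set was above 5 in at least 3 arrays, and 9120 genes were. Differences were tested with limma with Benjamini-Hochberg adjustment over those genes, and genes with an adjusted p under 0.05 are called. The sort was checked on microglial genes. P2ry12, Tmem119 and Cx3cr1 averaged 14.04 each over all arrays, and the mean of the 11 microglia markers on the array ran between 13.62 and 13.85. The difference between probes at the 3' and 5' ends of Actb and Gapdh, a sign of RNA quality, was 3.50 to 3.81 on 10 arrays. It was 4.82 and 4.21 on replicates 2 and 3 of irradiated Balb/c mice. Mean 18S ribosomal RNA signal was lower on every irradiated array, at 11.55 to 11.77 in C57BL/6 and 10.48 to 11.60 in Balb/c, against 12.05 to 12.31 in sham C57BL/6 and 11.93 to 12.32 in sham Balb/c. The part of either measure in the Ms4a values was not tested, beyond a fit with the 3' to 5' difference given below.

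Of the 6 genes, 5 passed the filter. With the brightest probe sets, each of these 5 was higher on all 3 irradiated arrays than on all 3 sham arrays in both strains. Such a separation was seen for 11.4% of all tested genes in C57BL/6 and 12.8% in Balb/c. The genes were chosen with earlier results of these data known, so these shares are a background and not a test. Of the 5, 2 rose in irradiated C57BL/6 mice and 4 rose in irradiated Balb/c mice, and none fell. Of all tested genes 3.67% were called in C57BL/6, 2.21% as higher and 1.46% as lower, and 6.15% in Balb/c, 3.26% as higher and 2.89% as lower. The median log2 difference of the 5 genes was 1.11 in C57BL/6 and 0.91 in Balb/c, while the median of all tested genes was -0.04 in both. In bulk RNA, fewer cells of a type and less RNA per cell cannot be told apart.

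**Figure D1:**
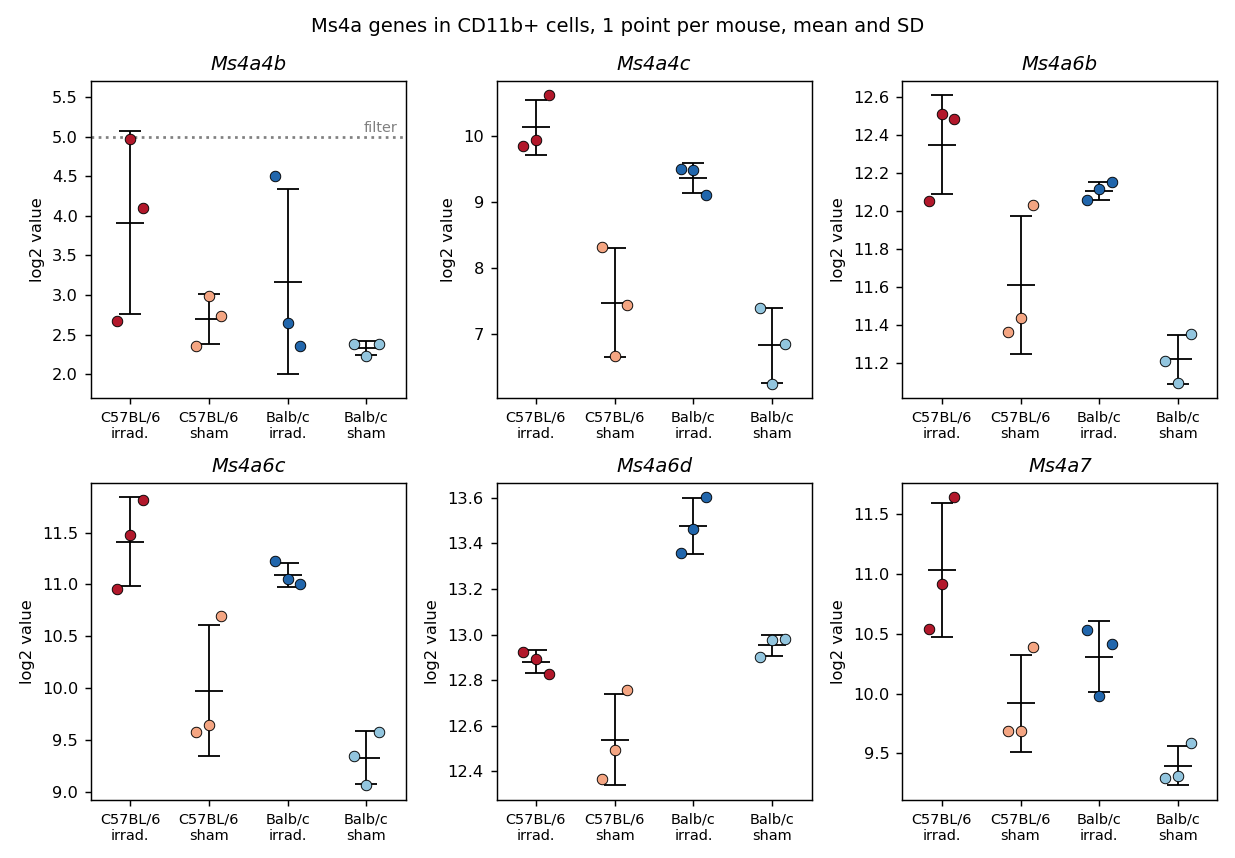
Log2 value (vertical axis, own scale per panel) of each Ms4a gene on each array, with 1 point per mouse, and the mean and SD of 3 mice per group. In the 5 panels other than Ms4a4b, all irradiated points of a strain lie above all its sham points; Ms4a4b stays under the filter at 5, its highest value being 4.97.

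Ms4a4c, which is often found among interferon-induced genes of mouse immune cells, had the largest differences of the 5. Its values were 9.85, 9.94 and 10.62 in irradiated C57BL/6 mice, against 8.32, 6.68 and 7.45 in sham C57BL/6 mice. The groups were well apart, and sham mice spread more than irradiated ones. In irradiated Balb/c mice the values were 9.51, 9.49 and 9.10, against 7.40, 6.26 and 6.85 in sham Balb/c mice. The log2 difference was 2.66 ± 0.40 in C57BL/6 (SE, limma, adjusted p = 0.00669), or 6.30-fold, and 2.54 ± 0.40 in Balb/c (adjusted p = 0.00553), or 5.80-fold. Both calls held without any 1 of the 12 arrays. The groups stood in the order irradiated C57BL/6, irradiated Balb/c, sham C57BL/6 and sham Balb/c. The neighbours irradiated Balb/c and sham C57BL/6 did not overlap, while the sham groups of the strains did.

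Ms4a6c came next in the size of its differences. It had values of 10.96, 11.47 and 11.81 in irradiated C57BL/6 mice, against 9.58, 9.65 and 10.70 in sham C57BL/6 mice, where replicate 3 lay more than 1 unit above the others and close to the lowest irradiated mouse. Irradiated Balb/c mice had 11.23, 11.05 and 11.00, against 9.35, 9.07 and 9.58 in sham Balb/c mice, with a wide gap between the groups. Ms4a6c rose by 1.44 ± 0.30 in C57BL/6 (limma, adjusted p = 0.0279), or 2.71-fold, and by 1.76 ± 0.30 in Balb/c (adjusted p = 0.00846), or 3.39-fold. The C57BL/6 call was lost without any 1 of sham replicates 1 and 2 and irradiated replicates 2 and 3, with adjusted p up to 0.113. The Balb/c call held without any 1 array.

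Ms4a6b, its neighbour with the shared run shown above, moved less. Values were 12.05, 12.51 and 12.48 in irradiated C57BL/6 mice, against 11.37, 11.44 and 12.03 in sham C57BL/6 mice, with sham replicate 3 again highest and almost level with irradiated replicate 1. In irradiated Balb/c mice they were 12.06, 12.11 and 12.15, against 11.21, 11.10 and 11.35 in sham Balb/c mice, so both Balb/c groups were tight and clearly apart. The difference was 0.74 ± 0.18 in C57BL/6, or 1.67-fold, which missed the threshold (limma, adjusted p = 0.0544). Ms4a6b rose by 0.89 ± 0.18 in Balb/c (adjusted p = 0.0190), or 1.85-fold. The Balb/c call was lost without any 1 of replicates 1 and 2 of the sham mice and 2 and 3 of the irradiated mice, with adjusted p up to 0.0752.

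Ms4a6d had the smallest differences with irradiation. Its values were 12.92, 12.89 and 12.83 in irradiated C57BL/6 mice, against 12.37, 12.49 and 12.76 in sham C57BL/6 mice, again with sham replicate 3 nearest to the irradiated mice. Irradiated Balb/c mice had 13.36, 13.46 and 13.60, against 12.90, 12.98 and 12.98 in sham Balb/c mice. All Balb/c values, sham ones included, were at or above the upper end of the C57BL/6 values except for sham replicate 1, which was under the highest irradiated C57BL/6 mouse. The difference was 0.34 ± 0.12 in C57BL/6, or 1.27-fold (limma, adjusted p = 0.133). Ms4a6d rose by 0.52 ± 0.12 in Balb/c (adjusted p = 0.0297), or 1.44-fold. That call was lost without any 1 of the 3 sham Balb/c arrays or of irradiated Balb/c replicates 2 and 3, with adjusted p up to 0.1001.

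Ms4a7, the marker of border macrophages, had values of 10.54, 10.91 and 11.64 in irradiated C57BL/6 mice, against 9.68, 9.68 and 10.39 in sham C57BL/6 mice. The irradiated mice lay above the sham mice, with a narrow gap between irradiated replicate 1 and sham replicate 3. In irradiated Balb/c mice the values were 10.53, 9.98 and 10.42, against 9.29, 9.31 and 9.59 in sham Balb/c mice. The difference was 1.11 ± 0.28 in C57BL/6, or 2.17-fold (limma, adjusted p = 0.0590), and 0.91 ± 0.28 in Balb/c, or 1.88-fold (adjusted p = 0.0821). Neither passed the threshold, although both 95% intervals, 0.49 to 1.74 in C57BL/6 and 0.29 to 1.54 in Balb/c, lie above 0 before adjustment.

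Ms4a4b, a gene of T cells whose protein associates with the receptor GITR, did not pass the filter. It had 2.68, 4.97 and 4.10 in irradiated C57BL/6 mice, against 2.36, 2.99 and 2.74 in sham C57BL/6 mice. In irradiated Balb/c mice it had 4.50, 2.64 and 2.36, against 2.38, 2.23 and 2.38 in sham Balb/c mice. The bottom of the scale is 2.23, so 3 irradiated mice stood above the rest and the groups overlapped in both strains. The second Ms4a4b probe set was at 2.23 on all arrays. Among T and NK cell markers, 10 of the 12 on the array were below 5 on every array, Cd3d, Cd3e and Cd8a among them. Of the other 2, Thy1 and Klrd1, limma called neither in C57BL/6, and neither had an unadjusted p under 0.05. Of all tested genes 3.67% were called there, and 1945 of 9120 had such an unadjusted p. In Balb/c Klrd1 fell by 1.16 ± 0.30 (limma, adjusted p = 0.0463), where 2.89% of all tested genes were called lower.

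The count of called Ms4a genes depended on single arrays. In C57BL/6, it fell to 1 without any 1 of sham replicates 1 and 2 and irradiated replicates 2 and 3, and it was 4 without sham replicate 3 or irradiated replicate 1. The fits with 1 called Ms4a gene called 207, 163, 351 and 113 of all tested genes in that order, and those with 4 called 246 and 214, against 335 with all arrays. In Balb/c the count of Ms4a genes was 2 without any 1 of sham replicates 1 and 2 and irradiated replicates 2 and 3. These fits called 268, 218, 337 and 280 of all tested genes in that order, against 561 with all arrays. With the 3' to 5' difference as a covariate, none of the 5 was called in Balb/c, where the calls over all tested genes fell to 104, against 561 without the covariate. The differences of the 5 genes stayed between 0.46 (Ms4a6d) and 2.39 (Ms4a4c), and their adjusted p in limma ran from 0.0719 for Ms4a4c to 0.200 for Ms4a6d.

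The strains were then compared for the size of the change. The irradiation effect in Balb/c minus that in C57BL/6 was between -0.20 for Ms4a7 and 0.32 for Ms4a6c with the brightest probe sets, and no Ms4a gene was called in limma, nor had any an unadjusted p under 0.05, the smallest being 0.309. Of all tested genes 0.0768% were called, 0.0439% with a larger and 0.0329% with a smaller value in Balb/c. An unadjusted p under 0.05 was found for 735 of the 9120. The 95% interval of this difference was -1.36 to 1.12 for Ms4a4c, -0.60 to 1.25 for Ms4a6c, -0.42 to 0.72 for Ms4a6b, -0.19 to 0.55 for Ms4a6d and -1.09 to 0.68 for Ms4a7. Differences within these intervals are not excluded.

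The levels of the strains were compared within each treatment, in contrasts that use the same arrays as the irradiation contrasts. Among irradiated mice, Ms4a6d was higher in Balb/c by 0.59 ± 0.12 (limma, adjusted p = 0.00955), or 1.51-fold, with all Balb/c arrays above all C57BL/6 arrays. It was the only 1 of the 5 genes called there, where 8.97% of all tested genes were called, 4.38% as higher and 4.59% as lower in Balb/c. Such a separation upwards was seen for 15.1% of all tested genes in irradiated and 16.3% in sham mice, and one downwards for 12.3% in each. The call held without any 1 of the 12 arrays but not with the 3' to 5' difference as a covariate, where the adjusted p was 0.145. Among sham mice the difference was 0.41 ± 0.12, again without overlap, and just missed the threshold (adjusted p = 0.0506). Without C57BL/6 sham replicate 3 it was 0.52 ± 0.12 and was called (adjusted p = 0.0207). The other 4 genes had differences below 0 in both treatments, and none was called. For Ms4a7 all Balb/c arrays lay below all C57BL/6 arrays in irradiated mice, by 0.72 ± 0.28 (adjusted p = 0.155), and in sham mice, by 0.52 ± 0.28 (adjusted p = 0.314). For Ms4a4c the difference was -0.77 ± 0.40 in irradiated mice (adjusted p = 0.294), where all Balb/c arrays also lay below all C57BL/6 arrays. In sham mice it was -0.65 ± 0.40 (adjusted p = 0.383), with overlap. Ms4a6b was likewise lower on all Balb/c arrays in sham mice, at -0.39 ± 0.18 (adjusted p = 0.237), but only with its brightest probe set. In sham mice limma called none of the 5 genes. Of all tested genes 10.5% were called, 5.22% as higher and 5.24% as lower in Balb/c. An unadjusted p under 0.05 was found for 1 of the 5 and for 2077 of all 9120 tested genes. Whether the probes match the Balb/c sequence was not tested.

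**Figure D2:**
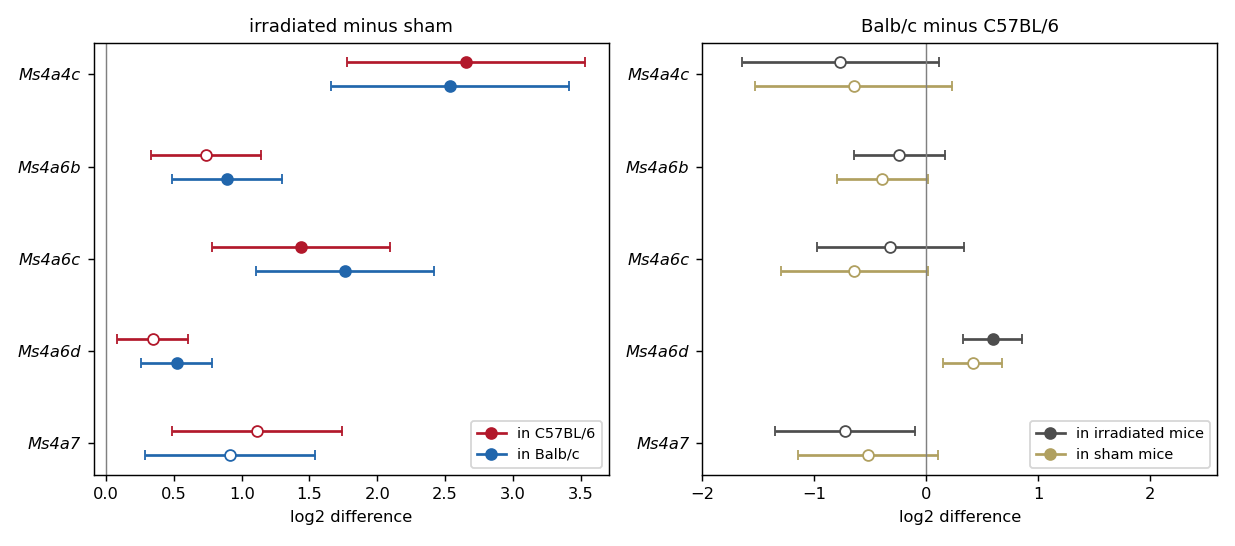
Log2 difference of the 5 tested Ms4a genes with its 95% interval, irradiated minus sham in each strain (left) and Balb/c minus C57BL/6 in each treatment (right). Filled points passed an adjusted p of 0.05. On the left every interval lies above 0, from 0.34 for Ms4a6d to 2.66 for Ms4a4c in C57BL/6; on the right only Ms4a6d lies to the right of 0.

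Of the other 11 Ms4a genes on the array, none reached 5 on any array. Ms4a1, the CD20 gene, was highest in irradiated C57BL/6 replicate 2, at 3.50. Ms4a20 and Ms4a15 were within 0.1 of the bottom of the scale on all arrays. Ms4a2, Ms4a3, Ms4a4d, Ms4a8a, Ms4a10, Ms4a13, Ms4a18 and Ms4a19 gave 2.23 on every array. Ms4a4d lies between the bright genes Ms4a6b and Ms4a6d on the chromosome. The 284 kb stretch was set from Ms4a7 to Ms4a6d, which are both above the filter, so its ends were fixed by the listed genes. Ms4a4b and Ms4a4d lie within it and had low values. Ms4a4a, which also lies within it, and Ms4a5, Ms4a12 and Ms4a14 had no probe set with their symbol alone. Probe sets with several symbols were not used, so these genes were given no value here.

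**Figure D3:**
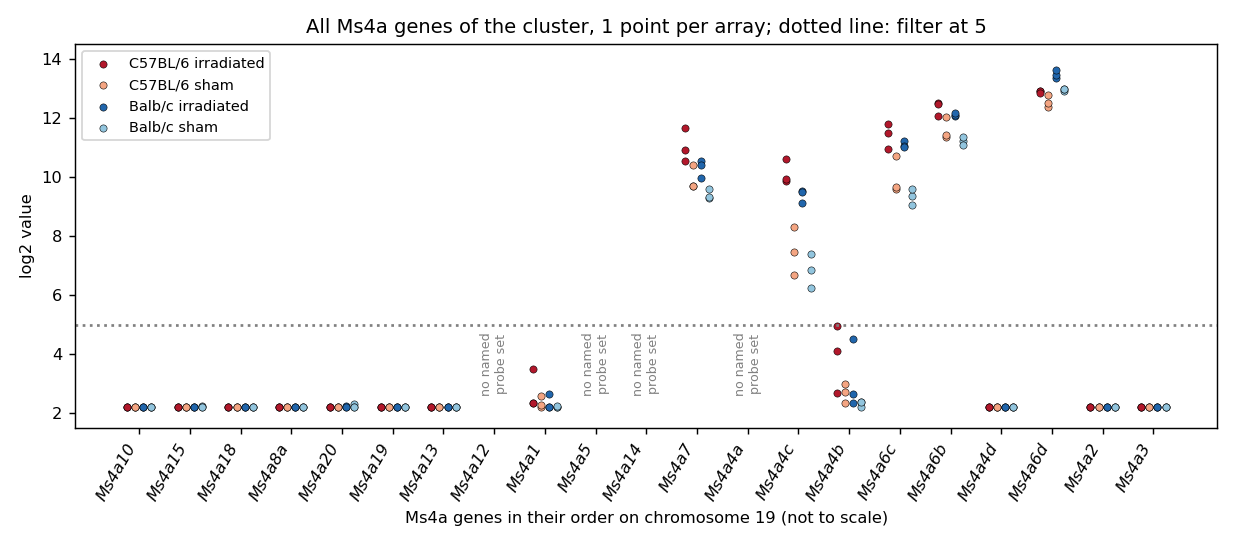
Log2 values of all 12 arrays (vertical axis) for the Ms4a genes in their order along chromosome 19, not to scale; the dotted line is the filter at 5. The 5 genes above the line are Ms4a7, Ms4a4c, Ms4a6c, Ms4a6b and Ms4a6d. Ms4a4a, Ms4a5, Ms4a12 and Ms4a14 had no probe set with their symbol alone and show no points. Heights of different genes come from different probes and are not comparable.

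Other probe sets of the same genes gave a check, fitted over all 16628 kept probe sets. A name ending in _s_at or _x_at marks probes that can bind more than 1 transcript, and the brightest sets of Ms4a4c and Ms4a6d are of the first kind, so their values are uncertain, and signal from near-identical family members was not tested. The second Ms4a4c probe set had 8.39, 8.62 and 9.30 in irradiated C57BL/6 mice, against 7.02, 5.11 and 5.92 in sham C57BL/6 mice, a difference of 2.76 ± 0.42 (limma, adjusted p = 0.00862). In Balb/c it had 7.83, 7.93 and 7.80 in irradiated mice, against 6.46, 5.77 and 5.60 in sham mice, a difference of 1.91 ± 0.42 (adjusted p = 0.0296). Ms4a4c was thus called in both strains by both of its probe sets.

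The second Ms4a6b probe set gave 0.58 ± 0.19 in C57BL/6 (limma, adjusted p = 0.132) and 1.17 ± 0.19 in Balb/c (adjusted p = 0.00785), the same calls as the first. Between strains in irradiated mice its sign was turned, at 0.24 ± 0.19 against -0.24 ± 0.18 for the brightest set, neither of which was called. The second Ms4a6d probe set gave 0.46 ± 0.19 in C57BL/6 (adjusted p = 0.200) and 0.45 ± 0.19 in Balb/c (adjusted p = 0.211), so the Balb/c call of Ms4a6d rests on the brightest set. Its strain difference was 0.33 ± 0.19 in irradiated mice (adjusted p = 0.335) and 0.35 ± 0.19 in sham mice (adjusted p = 0.32). Both were of the same sign as with the brightest set and not called, and the strains overlapped in both treatments. In C57BL/6 the second set did not separate irradiated from sham mice. There sham replicate 3, at 11.782, lay above irradiated replicates 1 and 3, at 11.745 and 11.747. The irradiation effect in Balb/c minus that in C57BL/6 was -0.85 ± 0.59 with the second set of Ms4a4c (adjusted p = 0.737) and 0.60 ± 0.27 with that of Ms4a6b (adjusted p = 0.622), against -0.12 ± 0.57 and 0.15 ± 0.26 with the brightest sets in the same fit of all probe sets. The other probe sets of Ms4a6c, Ms4a6d and Ms4a7 stayed below 5 on every array and give no check.

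**Figure D4:**
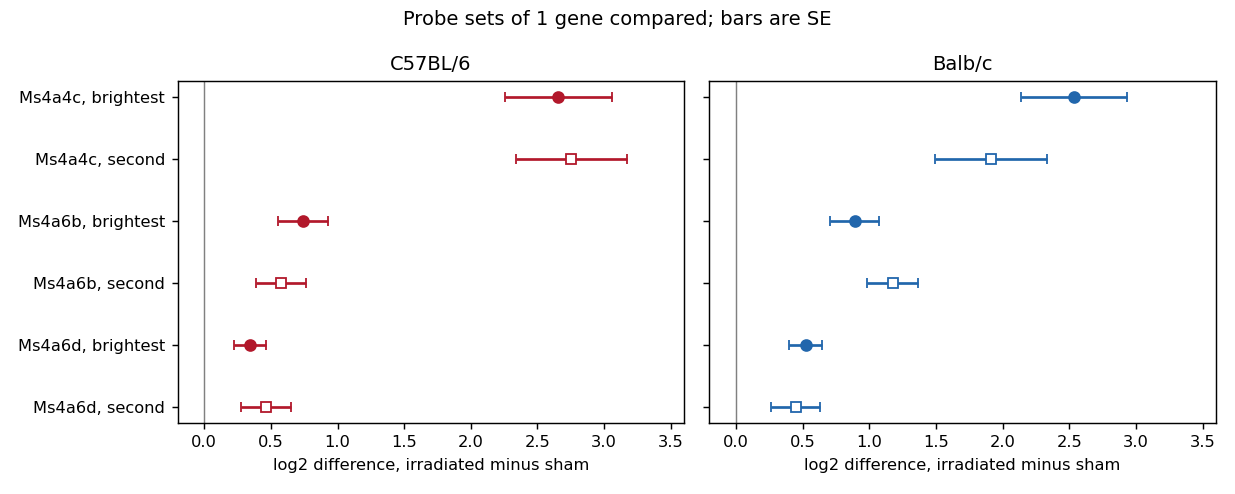
Log2 difference, irradiated minus sham (horizontal axis), with its SE for the brightest and the second probe set of Ms4a4c, Ms4a6b and Ms4a6d in each strain. All 12 values lie above 0, and the sets of a gene differ most for Ms4a4c in Balb/c, at 2.54 and 1.91.

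Among genes whose proteins act with MS4A proteins or resemble them, none rose with irradiation, and Trem2, Syk and Tmem176a fell in Balb/c. Of 9 such genes on the array, 7 were tested. In C57BL/6, limma called none of them, and their median log2 difference was 0.09. There 1 of them had an unadjusted p under 0.05, as did 1945 of all 9120 tested genes. In Balb/c, 3 fell and none rose, with a median of -0.55, where 2.89% of all tested genes were called lower. Without being called, Tyrobp was higher on all irradiated than on all sham arrays in both strains, and Clec7a in Balb/c. Such a separation was seen for 11.4% of all tested genes in C57BL/6 and 12.8% in Balb/c. In Balb/c, Trem2, Syk, Tmem176a and Tmem176b were lower on all irradiated arrays, as were 16.3% of all tested genes. Trem2 had 10.88, 10.15 and 10.73 in irradiated Balb/c mice, against 11.53, 11.88 and 11.41 in sham Balb/c mice, and fell by 1.02 ± 0.20 (limma, adjusted p = 0.0161). In C57BL/6 its difference was -0.41 ± 0.20 (adjusted p = 0.267), with irradiated arrays all below sham arrays, as for 15.1% of all tested genes. The second Trem2 probe set differed by only -0.09 ± 0.20 in Balb/c (adjusted p = 0.858), so the call rests on the brightest set, and it was lost without sham Balb/c replicate 2 (adjusted p = 0.0673).

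Syk, the kinase that signals below Trem2's adaptor Tyrobp and below the receptor Clec7a, had 8.18, 7.84 and 8.23 in irradiated Balb/c mice, against 8.71, 8.60 and 8.76 in sham Balb/c mice. It fell by 0.61 ± 0.13 (limma, adjusted p = 0.0224). Among irradiated mice it was lower in Balb/c than in C57BL/6, by 0.49 ± 0.13 (adjusted p = 0.0386). This strain difference was -0.16 ± 0.10 with probe sets averaged (adjusted p = 0.397), -0.27 ± 0.16 with the second set (adjusted p = 0.367) and -0.31 ± 0.16 with the 3' to 5' covariate (adjusted p = 0.472). With the replicate number as a block its adjusted p was 0.0709, so the call was lost in each of these fits. Tmem176a, a membrane protein related to the MS4A family, had 11.05, 10.31 and 10.90 in irradiated Balb/c mice, against 11.56, 11.45 and 11.45 in sham Balb/c mice. It fell by 0.73 ± 0.19 (adjusted p = 0.0471). In all 3 genes irradiated Balb/c replicate 2, the array with the highest 3' to 5' difference, had the lowest value. With that difference as a covariate limma called none of the 3, with adjusted p of 0.155 for Trem2, 0.204 for Syk and 0.350 for Tmem176a. Without that array Syk (adjusted p = 0.0626) and Tmem176a (adjusted p = 0.109) were not called. The Syk call in Balb/c was also lost without any 1 of the sham Balb/c arrays, and its strain difference was called in 3 of the 12 fits that leave out 1 array. Tmem176a was called in 2 of those 12, the fits without C57BL/6 irradiated replicate 3 or Balb/c irradiated replicate 1. The difference between strains in the irradiation effect was not called for any of them, with adjusted p of 0.627 for Trem2, 0.558 for Syk and 0.525 for Tmem176a. Kit and Tnfrsf18, the gene of GITR, did not pass the filter.

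Genes with the most similar profile over the 12 arrays were looked up for each Ms4a gene, by the root mean square difference of log2 values centred on each gene's mean. They were chosen on the same arrays, so their differences are a description. For Ms4a4c, whose own root mean square deviation from its mean was 1.42, these were Ifi27l2a at 0.47 and Mndal at 0.49, both known as interferon-induced genes. Ifi27l2a differed by 1.98 ± 0.37 in C57BL/6 and 1.95 ± 0.37 in Balb/c with irradiation, and Mndal by 1.62 ± 0.32 and 2.22 ± 0.32 in the same strains. For Ms4a6c, with a deviation of 0.90, they were Dab2, an endocytic adaptor, at 0.31 and Ifitm3, an interferon-induced antiviral membrane protein, at 0.34.

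For Ms4a6b, with a deviation of 0.48, the nearest genes were Itsn1, a scaffold of endocytosis, and Mrc1, the mannose receptor of border macrophages, both at 0.18. Ms4a7, with 0.68, was nearest to S100a10, a partner of annexin A2, at 0.23 and to Tmem106a at 0.25. Ms4a6d, with 0.35, was nearest to Galc, a lysosomal enzyme, at 0.12 and to Slc25a20, a mitochondrial carnitine carrier, at 0.15. Within the family, Ms4a6b and Ms4a7 were nearest to each other, at 0.30, and Ms4a4c and Ms4a6d farthest apart, at 1.34. Ms4a6d was nearer to Ms4a6b, at 0.48, than Ms4a4c was to any member, its nearest being Ms4a6c at 0.72. The measure grows with a gene's own deviation, which was 1.42 for Ms4a4c and 0.35 for Ms4a6d.

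Markers of other cells that the sort can hold also differed between irradiated and sham mice. Of 12 border-associated macrophage markers on the array, 11 were tested, with median differences of 0.68 in C57BL/6 and 0.97 in Balb/c. Dab2 alone rose in C57BL/6 (limma, adjusted p = 0.0416), and 4 rose in Balb/c. Of all tested genes, 2.21% were called higher in C57BL/6 and 3.26% in Balb/c. Maf, Pf4, Mrc1 and Stab1 had the highest means, and none of these was called in C57BL/6. Cd209f had a lower mean in irradiated than in sham mice, at 5.71 against 6.44 in C57BL/6 and 5.42 against 5.52 in Balb/c. So did Cd163 in Balb/c, at 10.165 against 10.237. The mean over the whole list was 10.12 to 10.40 in irradiated C57BL/6 mice, against 9.14 to 10.22 in sham C57BL/6 mice. It was 9.55 to 9.88 in irradiated Balb/c mice, against 8.94 to 9.14 in sham Balb/c mice. Sham C57BL/6 replicate 3 had the 10.22. It was also the highest of its group for Ms4a6b, Ms4a6c, Ms4a6d and Ms4a7, but not for Ms4a4c. That replicate was highest for the monocyte markers described next as well, with a mean of 7.09. Both lists were lowest in sham C57BL/6 replicate 2, at 9.14 and 5.95, as was Ms4a4c. This is an order of 3 mice in 1 group, and a link with either list was not tested. Of the border macrophage list, Siglec1 was below 5 on all arrays. Maf is also bright in microglia.

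Of 9 monocyte markers on the array, 8 were tested, with F13a1, Ccr2, Fn1 and S100a4 the highest by mean. Of the 8, 4 rose in C57BL/6 and 3 in Balb/c, where 2.21% and 3.26% of all tested genes were called higher. The median differences of the 8 were 1.13 and 1.03. S100a4 hardly differed in Balb/c, at 7.09 in irradiated against 7.06 in sham mice. Chil3 averaged 4.89 in irradiated against 6.22 in sham C57BL/6 mice, but 4.94 against 2.76 in Balb/c. The mean over the list was 7.29 to 8.08 in irradiated C57BL/6 mice, against 5.95 to 7.09 in sham C57BL/6 mice. It was 6.67 to 7.63 in irradiated Balb/c mice, against 6.16 to 6.50 in sham Balb/c mice. Vcan was below 5 on all arrays. F13a1 is on both of these lists. Of 9 neutrophil markers on the array, 5 were tested, and 2 rose in Balb/c, where 3.26% of all tested genes were called higher. In C57BL/6 limma called none of the 5, and none had an unadjusted p under 0.05. The mean over the 9 was 4.57 to 6.59 in irradiated C57BL/6 mice, against 4.48 to 6.32 in sham C57BL/6 mice. It was 4.78 to 6.22 in irradiated Balb/c mice, against 3.98 to 4.16 in sham Balb/c mice. Of 7 B cell markers, 3 were tested and limma called none of them with irradiation. An unadjusted p under 0.05 was found for 1 B cell marker in each strain. Of all 9120 tested genes, 1945 in C57BL/6 and 2082 in Balb/c had such a value.

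Interferon-induced genes rose in both strains. Of 21 on the array, with Ifitm3, Ifih1, Rtp4 and Ifit2 the highest, 16 were tested. Of these, 10 rose in irradiated C57BL/6 mice and 12 in irradiated Balb/c mice, and none fell, with median differences of 1.41 and 1.96. Oasl2 was above 5 only on irradiated C57BL/6 arrays, and Ifit1 only on irradiated arrays. The filter thus admitted both through the groups where they were high, which bears on these counts and medians. Of all tested genes, 2.21% were called higher in C57BL/6 and 3.26% in Balb/c. The mean over the list was 6.83 to 7.24 in irradiated C57BL/6 mice, against 5.75 to 6.08 in sham C57BL/6 mice. It was 6.28 to 6.64 in irradiated Balb/c mice, against 5.11 to 5.32 in sham Balb/c mice. Within sham C57BL/6 mice this list was highest in replicate 1 and lowest in replicate 3, while Ms4a4c was highest in replicate 1 and lowest in replicate 2. None of the 11 microglia markers was called with irradiation by limma in either strain. Of all tested genes, 3.67% were called in C57BL/6 and 6.15% in Balb/c. An unadjusted p under 0.05 was found for 1 microglia marker in C57BL/6 and 2 in Balb/c. Of all 9120 tested genes, 1945 and 2082 had such a value in these strains. The part of border macrophages, monocytes, neutrophils or interferon-induced genes in the Ms4a differences was not tested.

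**Figure D5:**
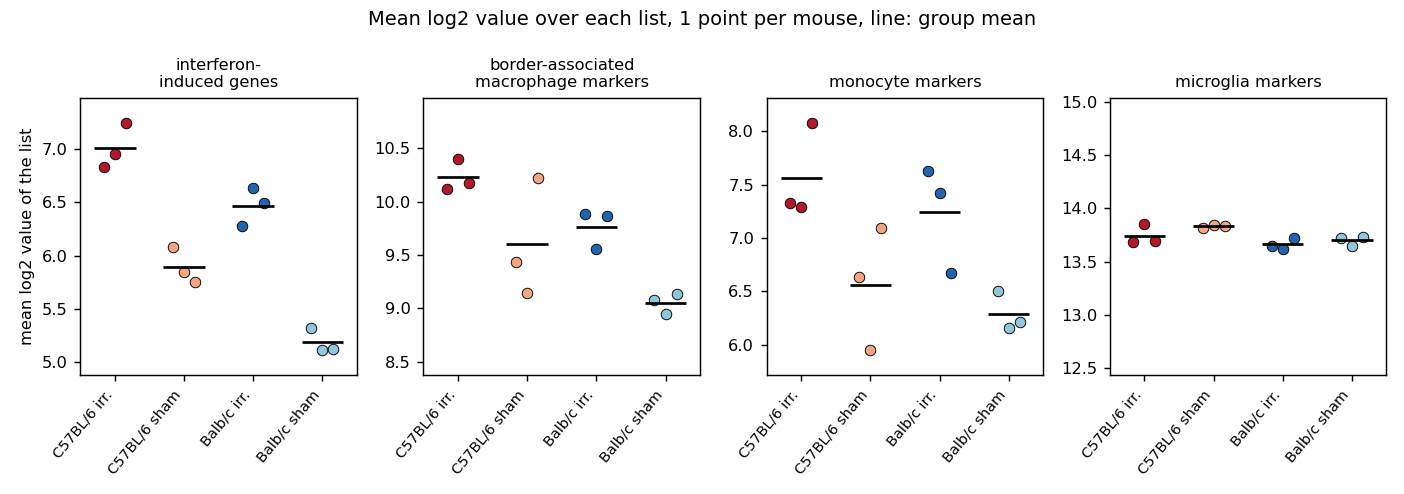
Mean log2 value of 4 gene lists (vertical axis, the same span of log2 units in each panel) on each array, with 1 point per mouse and a line at the group mean. Interferon-induced genes and monocyte markers each separate irradiated from sham mice in both strains. Border macrophage markers do so in Balb/c but overlap in C57BL/6, where 1 sham mouse is at 10.22. Microglia markers stay between 13.62 and 13.85.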

How the data were processed

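The arrays are Affymetrix arrays with biotin-labelled RNA after 2 rounds of linear amplification, from 5000 to 10000 sorted cells per mouse with an RNA integrity number above 7.4, per the labels' protocols. The values used are log2 intensities that the authors deposited for 45101 probe sets. They come from GCRMA, as the submitters' processing notes say, with no version given. Scanner files were not used here. Of the probe sets, 34945 had 1 gene symbol in the platform annotation, 932 several and 9160 none, and 64 were controls. Symbols were updated through the Entrez identifier for 34741. Groups come from the sample labels.

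The brightest probe set of each of 18193 genes was used, and the 9120 genes above 5 in at least 3 arrays were fitted with lmFit and eBayes of limma 3.58.1 in R 4.3.3. The model had a mean for each group, which left 8 residual degrees of freedom, and Benjamini-Hochberg adjustment ran over all genes fitted. Precision is limited by the number of arrays. Simulated data with known changes were used to test the script.

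The Ms4a genes and the lists were chosen with earlier results of these data known. Text names the 6 genes, other Ms4a genes, called genes of the list of MS4A partners and relatives, the 2 genes nearest in profile to each tested Ms4a gene, and up to 4 of each other list by highest mean. Cd3d, Cd3e, Cd8a, Thy1, Klrd1, Siglec1, Cd209f, Cd163, Vcan, Chil3, Kit and Tnfrsf18 were added after their values were seen. So were Ifit1, Oasl2 and Tmem176b. Tyrobp and Clec7a were added for their roles, and their separation after it was seen. The alternatives were other filters, normalizations, probe sets, thresholds, eBayes settings, weights for arrays, the compared groups alone, a replicate block, an RNA quality covariate and leaving out arrays. Same-numbered irradiated arrays of the strains deviated together, with correlations of 0.217, 0.447 and 0.323, and the labels name no shared batch; the block is given where it changes a call between them.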

Additional observations from a re-analysis of the deposited data

How the results depend on the processing

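The 7 called Ms4a differences kept their sign in all 187 alternative values and their call in 149. The 18 not called gave 478, of which 464 kept the sign and 19 were called. The C57BL/6 count of 2 called genes became 1 without a filter, with probe sets averaged per gene, with second probe sets, at an adjusted p under 0.01 and without replicate 3 of irradiated C57BL/6 and replicate 2 of irradiated Balb/c mice together, which stood apart in an earlier analysis. It became 4 with a filter at 7, with eBayes with trend and robust and with the replicate block, and 0 with the compared groups alone, where Ms4a4c had an adjusted p of 0.0525 and the calls over all genes fell to 96, against 335. The Balb/c count of 4 became 2 with second probe sets, at 0.01 and at 2-fold, and 0 with the 3' to 5' covariate. Without the 2 arrays named above it was 3, with Ms4a6b and Ms4a6d lost and Ms4a7 called. Between strains, the sham count of 0 became 1 with a filter at 7 and with eBayes with trend and robust, and the irradiated count of 1 became 0 with averaged probe sets, second probe sets, the covariate, without both arrays and at 2-fold. Leaving out single arrays gave 1 to 4 in C57BL/6, 2 to 5 in Balb/c, 0 to 1 between strains in sham mice and 1 in irradiated mice. The difference of the irradiation effect gave 0 throughout. Second probe sets could be tested for 3 of the 5 genes. The strain difference of Slc25a20 in sham mice, 0.49, was -0.068 with its second probe set, and the cause was not tested. The replicate numbers did not establish a pairing of irradiated with sham mice. Of 18 pairs of arrays with the same number, 9 had a correlation of their deviations above 0.1, ranging from -0.05 to 0.45, and 9 of 12 arrays correlated best with their own number. Irradiated mice of the 2 strains were the groups whose 3 pairs all exceeded it, at 0.217, 0.447 and 0.323, and there the replicate block kept the count of 1. With the replicate block, the counts were 4 in C57BL/6, where Ms4a6b (adjusted p = 0.0342) and Ms4a7 (0.0236) were added, and 5 in Balb/c, where Ms4a7 (0.0361) was added. Limits are the 3 mice a group, probes that can bind paralogs, and probe match to Balb/c sequence, which was not tested.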
